A study of Mus musculus with 6 samples.

Results

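The 8 genes described here encode parts of the dystrophin-glycoprotein complex or its close relatives: Dmd, Utrn, Dag1, Sgca, Sgcb, Sgcd, Sntb1 and Lama2. They were taken by symbol from the gene count table, where 24054 genes are listed, and all 8 had enough reads to be among the 12660 tested. The data were RNA-seq libraries of mouse gastrocnemius, a hindlimb muscle, from the study of the transcription factor IRF4 in muscle. The 3 MI4KO libraries came from mice with Irf4 deleted in skeletal muscle by crossing a floxed Irf4 allele with Myl1-Cre, and the 3 MI4OE libraries from mice in which Myl1-Cre switched on an Irf4 transgene at Rosa26 behind a stop cassette. Both groups carried Cre, were male and on a C57BL/6 background, and no flox or wild-type gastrocnemius was analysed here, which leaves knockout against overexpressor as the single contrast. Myl1-Cre acts in muscle fibres, so the other cells of the tissue keep their own Irf4 alleles. The labels give a high fat diet for every library, whereas the study describes mice on chow, and the diet is therefore in doubt. No age was given for these libraries.

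Dystrophin, the product of Dmd, links the actin cytoskeleton of the muscle fibre to dystroglycan in the sarcolemma, and dystroglycan binds laminin in the basement membrane outside the fibre. The sarcoglycans stabilise this link from within the membrane and the syntrophins gather signalling proteins beneath it. Loss of dystrophin causes Duchenne muscular dystrophy, loss of single sarcoglycans causes limb-girdle dystrophies, and loss of laminin alpha2 causes a congenital dystrophy.

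Since IRF4 binds DNA at GAAA cores, windows around the annotated RefSeq starts of the member genes were searched for its motifs. RefSeq start sites in GRCm38.p6 gave 9 windows for 7 of the 8 members, each with 250 bases before and 50 after the start. Dmd and Dag1 gave a further window each, so the 9 are not all separate genes. The Dag1 windows overlap, and the further Dmd window lies downstream of the full-length muscle start. The window of the full-length muscle Dmd transcript and that of Utrn, its autosomal relative, are shown because the ratio of these genes is one of the comparisons made, with GAAA or its reverse complement TTTC in capitals. The Dmd window lies at chrX:82948620-82948919 on the plus strand and the Utrn window at chr10:12861686-12861985 on the minus strand.
Dmd: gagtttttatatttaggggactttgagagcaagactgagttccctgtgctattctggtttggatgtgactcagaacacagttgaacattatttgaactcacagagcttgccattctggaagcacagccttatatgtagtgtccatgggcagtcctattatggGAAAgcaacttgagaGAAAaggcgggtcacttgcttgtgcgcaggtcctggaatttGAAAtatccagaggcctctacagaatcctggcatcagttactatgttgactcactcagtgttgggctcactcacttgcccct
Utrn: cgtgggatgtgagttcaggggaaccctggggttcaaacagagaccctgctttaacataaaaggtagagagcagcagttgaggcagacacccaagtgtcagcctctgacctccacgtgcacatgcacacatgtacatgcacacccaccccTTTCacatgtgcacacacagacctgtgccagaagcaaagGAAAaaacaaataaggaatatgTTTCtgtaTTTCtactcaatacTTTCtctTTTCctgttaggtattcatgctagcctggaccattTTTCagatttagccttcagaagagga
The Dmd window held 3 GAAA cores and the Utrn window held 7, counting both strands. The annotated Utrn start directly follows a pyrimidine-rich stretch ending in ag, letters also found at splice acceptors. Whether the Utrn window is a promoter was not tested, so these counts are not a comparison of promoters. The GAAA core was present in 7 of the 9 member windows and in 89.2% of all 32851 windows. The interferon-stimulated response element GAAANNGAAA was in 0 of the 9 and in 3.44% of all windows, and the Ets-IRF composite element GGAANNGAAA was in 0 of the 9 and in 2.72%. The 2 elements can overlap each other, and both contain the core. The E-box CAGCTG was in 0 of the 9 and in 16.3%. These counts describe letters in the windows, and no binding was measured in these libraries.

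Total expected counts ran from 18828605 in MI4OE replicate 1 to 29239585 in MI4KO replicate 3. Irf4 followed the labels, with 6, 0 and 2 counts across the MI4KO replicates and 2864, 10557 and 5911 across the MI4OE replicates. The fast fibre genes were abundant in all 6 libraries, between 189106 and 329149 CPM (counts scaled to a common library size) in sum. MI4OE replicate 1 stood apart in slow fibre genes, whose summed level was 6903 CPM there, 624 CPM in MI4OE replicate 3 and at most 92.2 CPM in the others. The labels do not say that the replicates were separate animals. The edgeR p-values therefore judge a group difference against the spread of libraries within groups, which may not be a spread between animals.

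Within a library the members spanned more than 2 orders of magnitude per unit of transcript length. Mean TPM, a unit that corrects for transcript length, over the 6 libraries was 224 ± 19.8 (SD, n = 6) for Sgca, 59.4 ± 20.1 for Dag1 and 35.6 ± 7.45 for Sgcb. The lower members were Sgcd at 8.64 ± 4.86, Dmd at 7.13 ± 3.15, Lama2 at 4.07 ± 0.717, Utrn at 2.42 ± 0.767 and Sntb1 at 1.22 ± 0.563 TPM. The ranges of neighbours in this order were separate over the 6 libraries only between Sgca and Dag1 and between Sgcb and Sgcd. Within libraries the order was steadier. The higher neighbour was above the lower in 6 of 6 libraries for 5 of the 7 neighbouring pairs, in 5 of 6 for Dmd over Lama2 and in 4 of 6 for Sgcd over Dmd.

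**Figure D1:**
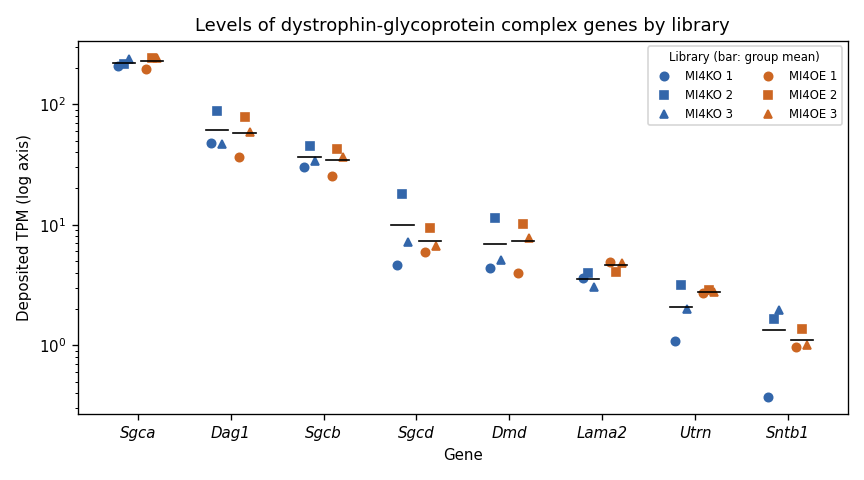
Deposited TPM (log axis) of each member in the 3 MI4KO and 3 MI4OE libraries, with bars at the group means and genes ordered by mean level. The groups overlap for every member except Lama2, whose lowest MI4OE value of 4.05 TPM lies just above the highest MI4KO value of 3.99.

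The question here is whether these genes differ between muscle without IRF4 and muscle with an excess of it. None of the 8 members passed the test. At an adjusted p under 0.05 by edgeR's quasi-likelihood test the count was 0 of 8, against 0.0237% of all genes tested, which is 3 genes. DESeq2 and edgeR's exact test also called 0 of the 8. At an unadjusted p under 0.05 it was again 0 of 8, against 7.58% of all genes (4.9% higher and 2.68% lower in MI4OE). The study's own criterion, an unadjusted p under 0.05 together with a 1.5-fold difference, was met by 0 of 8, against 6.64%. The CPM of the groups overlapped in all 8, whereas the groups did not overlap in 12.9% of all genes. Of the members, 3 had a higher and 5 a lower fitted level in MI4OE, and their median log2 fold change was -0.07. With so few members, counts of 0 are close to what these background shares give.

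Dystrophin itself varied more among libraries of a group than between the groups. Dmd measured 46.4, 86.8 and 44.7 CPM across MI4KO replicates 1, 2 and 3 and 37.2, 81.7 and 63.6 CPM across MI4OE replicates 1, 2 and 3. Replicate 2 was the highest in either group, and a number in common ties no libraries together. The fitted log2 fold change of MI4OE against MI4KO was 0.04 ± 0.36 (SE), with an adjusted p of 0.992. Its 95% interval ran from 0.578-fold to 1.83-fold, so neither a 1.5-fold rise nor a 1.5-fold fall was outside it. The sign turned with single libraries, from -0.23 without MI4OE replicate 2 to 0.41 without MI4KO replicate 2. The transcript set held a single Dmd entry of 13852 bases, and reads from shorter dystrophin products that share its exons count toward the same value.

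Utrophin, the relative of dystrophin that is concentrated at the neuromuscular junction in adult fibres and spreads along the sarcolemma in regenerating ones, had the largest positive difference among the members. Utrn measured 10.2, 21.6 and 15.6 CPM across the MI4KO replicates and 22.7, 20.4 and 20.2 CPM across the MI4OE replicates. The MI4OE libraries lay close together, and MI4KO replicate 2 lay inside their range. The log2 fold change was 0.42 ± 0.26 (SE), with a 95% interval from 0.873-fold to 2.04-fold and an adjusted p of 0.787. Without MI4KO replicate 2 it reached 0.70 with an unadjusted p of 0.0189, which meets the study's criterion, and an adjusted p of 0.644. Without MI4KO replicate 1, the lowest library, it was 0.17.

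The ratio of Utrn to Dmd TPM within a library was also compared. Both genes are long, but they followed the length trend of the libraries, described below, to different degrees. Pearson's r with that trend was 0.989 for Dmd and 0.385 for Utrn. Utrn was at 0.245, 0.279 and 0.391 of the Dmd level in the MI4KO replicates and at 0.683, 0.279 and 0.355 in the MI4OE replicates. The groups overlapped, with MI4OE replicate 1 above the rest, and the mean ratio was 0.305 ± 0.0760 (SD, n = 3) in MI4KO and 0.439 ± 0.214 (SD, n = 3) in MI4OE. The log2 difference was 0.45 with p = 0.4 in a two-sided exact permutation test, which cannot go below 0.1 with 3 libraries per group. The difference rested on MI4OE replicate 1 and was 0.075 without it. In that library long genes stood lowest against short ones, and the part of this trend in the ratio was not tested.

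Dystroglycan, the laminin receptor at the centre of the complex, is encoded by Dag1. It measured 192, 260 and 160 CPM across the MI4KO replicates and 131, 245 and 187 CPM across the MI4OE replicates. The groups overlapped over most of their range, and the order of the libraries resembled that of Dmd. Its log2 fold change was -0.12 ± 0.28 (SE), with a 95% interval from 0.583-fold to 1.45-fold and an adjusted p of 0.943. Single libraries moved it from -0.36, without MI4OE replicate 2, to 0.080, without MI4KO replicate 2.

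Dag1 was the only member with more than 1 transcript in the set, and RSEM, which shares reads among the transcripts they match, divided it differently from library to library. NM_001276485, of 5378 bases, took 81.4%, 22.2% and 55.1% of the Dag1 TPM in the MI4KO replicates and 92.6%, 30.8% and 30.9% in the MI4OE replicates. NM_001276482, of 5447 bases, took 16.0%, 39.7% and 19.7% and then 3.70%, 46.1% and 32.1%. Both transcripts varied more within each group than the groups differed, and their ranges overlapped between genotypes. NM_001276494 was listed at 0 in every library. In the GENCODE annotation of GRCm38 the transcripts of the same exon structure have the same coding length of 2679 bases. They differ ahead of it, with 3 exons for NM_001276485 and 4 for the others that could be matched, whose second exon has 57 bases. Since most of their sequence is shared and reads were 50 bases long, these shares are uncertain.

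**Figure D2:**
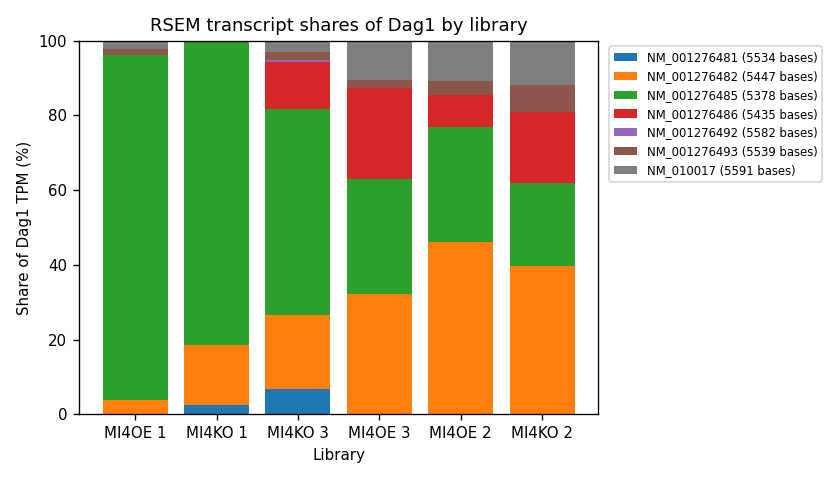
Share of Dag1 TPM given by RSEM to each transcript (percent, y axis) in the 6 libraries, ordered from left to right by the length trend of the library. NM_001276485 takes over 80% in MI4OE replicate 1 and MI4KO replicate 1, and 22.2% in MI4KO replicate 2 at the other end.

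Among the sarcoglycans, Sgca was the most even member. Sgca, the alpha subunit, measured 257, 193 and 247 CPM across the MI4KO replicates and 219, 230 and 235 CPM across the MI4OE replicates, so that all MI4OE libraries lay inside the MI4KO range. Its log2 fold change was -0.03 ± 0.18 (SE), with an adjusted p of 0.986. The interval from 0.736-fold to 1.31-fold lay inside 1.5-fold in either direction.

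Sgcb, the beta subunit, measured 83.6, 90.6 and 78.8 CPM across the MI4KO replicates and 62.7, 89.1 and 79.0 CPM across the MI4OE replicates. Only MI4OE replicate 1 lay below the MI4KO range. Its log2 fold change was -0.13 ± 0.18 (SE), with an adjusted p of 0.900. Its interval from 0.684-fold to 1.22-fold also lay inside 1.5-fold, which held for Sgca and Sgcb but for no other member.

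Sgcd, the delta subunit, was low and uneven, measuring 4.54, 12.8 and 5.88 CPM across the MI4KO replicates and 5.21, 7.03 and 5.08 CPM across the MI4OE replicates. A single library, MI4KO replicate 2, lay far above the other 5. This gave a log2 fold change of -0.42 ± 0.39 (SE), with a 95% interval from 0.402-fold to 1.40-fold and an adjusted p of 0.853. Without that library it was 0.14.

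Sntb1, which encodes the beta1 syntrophin adaptor, was the lowest member. It had 14, 47 and 76 expected counts in the MI4KO replicates and 27, 46 and 28 in the MI4OE replicates, or 0.573, 1.86 and 2.55 CPM against 1.33, 1.61 and 1.24 CPM. The MI4OE libraries all lay inside the wide MI4KO range. The log2 fold change was -0.26 ± 0.51 (SE), with a 95% interval from 0.367-fold to 1.90-fold and an adjusted p of 0.936. The interval held 1.5-fold in both directions. Without MI4KO replicate 1 the value was -0.67 and the groups, with fewer libraries to separate, did not overlap. Without MI4KO replicate 3 the value was 0.18.

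Lama2, the laminin chain that dystroglycan binds around muscle fibres, measured 26.5, 21.2 and 18.8 CPM across the MI4KO replicates and 32.3, 22.7 and 27.8 CPM across the MI4OE replicates. MI4KO replicate 1 lay between the MI4OE values and the other MI4KO libraries lay below them. Fitted over all 6 libraries, the log2 fold change was 0.32 ± 0.20 (SE), with a 95% interval from 0.904-fold to 1.71-fold and an adjusted p of 0.786. Among the laminin alpha chains Lama2, Lama4 and Lama5, Lama2 made up 45.5%, 36.0% and 30.2% of the summed TPM in the MI4KO replicates and 34.8%, 33.9% and 35.7% in the MI4OE replicates. The share was 37.2 ± 7.74% (SD, n = 3) in MI4KO and 34.8 ± 0.879% (SD, n = 3) in MI4OE, with p = 0.7 in a two-sided exact permutation test. Without MI4KO replicate 1 the difference turned from -2.44 to 1.70 percentage points.

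**Figure D3:**
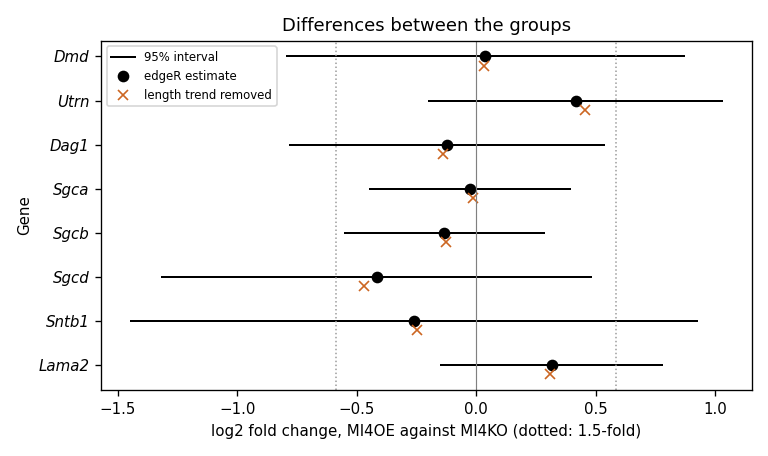
Log2 fold change of MI4OE against MI4KO (x axis) for each member (y axis), with black dots for the edgeR estimate, lines for its 95% interval and crosses for the fit with the length trend of each library removed. Dotted lines mark 1.5-fold, all 8 intervals cross 0, and only those of Sgca and Sgcb stay between the dotted lines.

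Leaving out MI4OE replicate 1, the library with the highest slow fibre sum, gave 0 of 8 members at an adjusted p under 0.05. Without it, the log2 fold change was 0.29 for Dmd, 0.36 for Utrn and 0.18 for Lama2. It was 0.077 for Dag1, -0.01 for Sgcb, -0.35 for Sgcd and -0.23 for Sntb1, and that of Sgca was within 0.01 of 0.

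The libraries differed in how long genes stood against short ones, and each member was set beside this trend. In each library, genes were divided into 5 bins of RSEM effective length, and the median log2 deviation of the longest bin from the 6-library mean was set against that of the shortest. This difference was -0.27, 0.45 and -0.16 in the MI4KO replicates and -0.44, 0.33 and 0.09 in the MI4OE replicates. Long genes were thus relatively high in MI4KO replicate 2 and MI4OE replicate 2, and low in MI4OE replicate 1 and MI4KO replicate 1, across both groups. Over the 6 libraries, which share their depth and composition with every gene in them, the Pearson correlation of a member's deviations with this difference was 0.989 for Dmd and 0.916 for Dag1, both in the longest bin. It was 0.810 for Sgcb and 0.784 for Sgcd, the latter in the shortest bin. Sgcd deviated by 0.955 in MI4KO replicate 2, the library with the highest trend, and by 0.138 in the next highest, MI4OE replicate 2. Utrn and Lama2 are also in the longest bin, and their correlations were 0.385 and -0.522. Sntb1 was at 0.355 and Sgca at -0.545. The part of this trend in the members' values was not tested beyond a fit with the trend removed, which was chosen after the data were seen.

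In that fit the within-group SD of log2 CPM was 0.303 for Dmd, against 0.559 before. For Dag1 it was 0.269, against 0.404, and for Sgcb 0.122, against 0.196. For Sgca it was 0.128, against 0.163, and for Utrn 0.329, against 0.390. It was larger in the other 3, at 0.423 against 0.255 for Lama2, 0.715 against 0.578 for Sgcd and 0.831 against 0.815 for Sntb1. No member passed an adjusted p of 0.05. Dmd had a log2 fold change of 0.03, Dag1 -0.14 and Lama2 0.31. Utrn, at 11.4, 17.3 and 17.6 CPM across MI4KO and 26.5, 17.6 and 19.6 CPM across MI4OE, had 0.46 with an adjusted p of 0.589, and its groups were then barely separate.

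**Figure D4:**
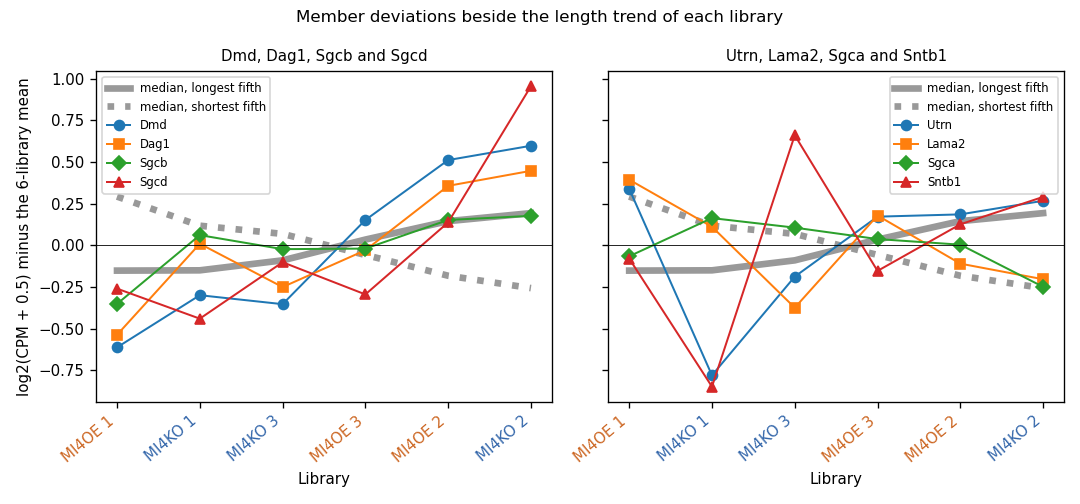
Deviation of each member's log2(CPM + 0.5) from its 6-library mean (y axis), with libraries ordered along the x axis from the lowest to the highest length trend and grey lines for the medians of the longest and shortest bins of genes. Dmd, Dag1 and Sgcb climb with the solid grey line through libraries of both groups, while Utrn and Lama2 are high in MI4OE replicate 1 at the left.

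The members did not vary as a unit. Over the 6 libraries, Pearson's r of log2 CPM was 0.940 between Dmd and Dag1, 0.934 between Dag1 and Sgcb and 0.813 between Dmd and Sgcb. Between Dmd and Utrn it was 0.36, and between the sarcoglycans Sgca and Sgcd it was -0.850. These values describe 6 libraries that share the length trend. Among 6404 genes of at least 10 CPM on average, those most like Dmd were Tenm3 at 0.999, Zmym4 at 0.996, Opa1 at 0.996, Prpf8 at 0.994 and Hcfc1 at 0.992. Those most like Utrn were Kansl3 at 0.994, Fam73b at 0.991, Macf1 at 0.991, Msl1 at 0.978 and Clpx at 0.972. For Lama2 they were Gpr56 at 0.973, Ankrd12 at 0.966, As3mt at 0.962, Laptm4a at 0.960 and Gpatch1 at 0.960.

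The rest of the complex gave a similar picture. Of 13 further genes listed, 10 were tested and 0 had an unadjusted p under 0.05, against 7.58% of all genes. The median log2 fold change was -0.06, with 2 higher and 8 lower. It turned to 0.023 without MI4OE replicate 1 and to 0.014 with total counts without TMM. Drp2, a dystrophin relative of myelinating Schwann cells, measured 1.31, 3.84 and 0.840 CPM across MI4KO and 3.84, 8.21 and 2.83 CPM across MI4OE, with a log2 fold change of 1.32 and an unadjusted p of 0.0681. Dtnb, a dystrobrevin, had a log2 fold change of -0.27. Sgcz and Sntg1 were listed at 0 in every library.

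The enzymes that build the laminin-binding glycan on dystroglycan mostly missed the thresholds too. Of 17 tested, 0 passed an adjusted p of 0.05, and 2 had an unadjusted p under 0.05, both lower in MI4OE, against 2.68% of all genes in that direction. B3galnt2, a glycosyltransferase of the core glycan, measured 103, 102 and 91.8 CPM across MI4KO and 51.1, 69.9 and 71.0 CPM across MI4OE. The groups were separate, with a log2 fold change of -0.63, an unadjusted p of 0.00886 and an adjusted p of 0.521. Pomk, the kinase of the same glycan, measured 9.62, 11.3 and 11.0 CPM across MI4KO and 7.08, 8.42 and 5.96 CPM across MI4OE, with -0.57 and an adjusted p of 0.546. Dolk, dolichol kinase, had -0.30. The list median was -0.12, and ran from -0.18 without MI4OE replicate 2 to -0.047 without MI4OE replicate 1.

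Basement membrane partners of dystroglycan and laminin alpha2 stood higher in MI4OE as a list, though 0 of 15 passed the adjusted threshold in edgeR's quasi-likelihood test. DESeq2 and edgeR's exact test each called 3 of them, Lamb1, Col6a1 and Col6a2. All 15 tested had positive log2 fold changes with a median of 0.63, and 9 had an unadjusted p under 0.05, against 4.9% of all genes in that direction. Groups did not overlap in 9 of the 15, against 12.9% of all genes. Lamb1, the laminin beta1 chain, measured 7.78, 9.07 and 8.97 CPM across MI4KO and 22.4, 15.2 and 16.4 CPM across MI4OE. Its log2 fold change was 1.07 with an adjusted p of 0.422, against 0.00277 with DESeq2 and 0.00479 with the exact test. Col6a1 and Col6a2, chains of the collagen VI that surrounds muscle fibres, had 0.97 and 0.90 and an adjusted p of 0.433 each. With DESeq2 their adjusted p was 0.0217 and 0.00766, and with the exact test 0.0308 and 0.0185. The 9 became 5 without MI4KO replicate 1, 4 without MI4OE replicate 3 and 4 with the length trend removed, where the median log2 fold change was 0.43, 0.60 and 0.63.

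Summed markers of fibroblasts and of the vessel wall were higher in each MI4OE library than in any MI4KO library, beside the higher fitted levels of these partners, Lama2 and Utrn. In whole tissue, more cells of a type and more RNA per cell cannot be told apart. Fibroblast markers summed to 230 to 383 CPM in MI4KO and 400 to 553 CPM in MI4OE, with 9 of 10 higher and 6 at an unadjusted p under 0.05, against 4.9% of all genes in that direction. Endothelial markers summed to 139 to 214 CPM against 240 to 467 CPM, with 10 of 10 higher and 5 at that p, against the same 4.9%. The endothelial median log2 fold change was 0.77, and 0.48 without MI4OE replicate 1, the library with the highest endothelial sum. Smooth muscle and pericyte markers summed to 90.1 to 135 CPM against 169 to 256 CPM, with 9 of 9 higher and 7 at that p, against 4.9% again. Among fibroblast markers, Col1a2 had a log2 fold change of 0.76, Pdgfra 0.74 and Col1a1 0.77. Among endothelial ones, Flt1 had 0.85, Cdh5 1.04 and Tie1 1.002. Myh11 had 1.29, Pdgfrb 1.07 and Mylk 0.85, and no marker passed the adjusted threshold in the quasi-likelihood test. The part of these cells in the values of Lama2, Utrn and the basement membrane genes was not tested.

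Schwann cell markers, relevant to Drp2, summed to 36.4, 136 and 30.9 CPM across MI4KO and 106, 250 and 86.6 CPM across MI4OE. All 8 were higher with a median log2 fold change of 0.90, with 0 at an unadjusted p under 0.05, and their sum ranked the libraries within each group as Drp2 did. The median was 2.09 without MI4KO replicate 2 and 0.44 without MI4OE replicate 2. Sox10 had 1.45, Pmp22 0.79 and Prx 1.42. Neuromuscular junction markers, relevant to Utrn, had a median of 0.43, with 6 of 9 higher and 4 at an unadjusted p under 0.05, all higher, against 4.9% of all genes. That median was 0.22 without MI4KO replicate 3. Chrnd, the delta subunit of the acetylcholine receptor, measured 0.901, 0.594 and 0.974 CPM across MI4KO and 4.13, 3.39 and 3.31 CPM across MI4OE. Its groups were well apart, with a log2 fold change of 2.12, an unadjusted p of 1.28e-04 and an adjusted p of 0.216. Chrna1, the alpha1 subunit, had 0.78 and Etv5 0.69.

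Links of the sarcolemma outside the complex, such as the integrin alpha7 and talin genes, had a median of 0.02 on the log2 scale across 14 tested genes. Of these, 7 were higher, 7 lower and 0 at an unadjusted p under 0.05, against 7.58% of all genes. Tln1 had 0.27, Actg1 0.30 and Ilk 0.25. Long muscle transcripts such as Ttn and Neb, both longer than Dmd, had a median of -0.07, with 3 of 10 higher and 0 at that p. Syne1 had -0.30, Macf1 0.25 and Xirp2 -0.17. Of 7 regeneration genes tested, 5 were higher with a list median of 0.32, and only Myh8, the perinatal myosin, had an unadjusted p under 0.05, at 24.7 CPM in MI4OE replicate 1 and at most 3.11 CPM in the other 5 libraries. Myh8 had a fitted log2 difference of 2.20, while Pax7 had 0.92 and Ncam1 0.32. The list median ran from 0.090 without MI4OE replicate 1 to 0.50 without MI4KO replicate 3. Myh3, the embryonic myosin, was not tested, and its TPM was 2.60 in MI4OE replicate 1, 1.42 in MI4OE replicate 3 and at most 0.09 elsewhere.

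**Figure D5:**
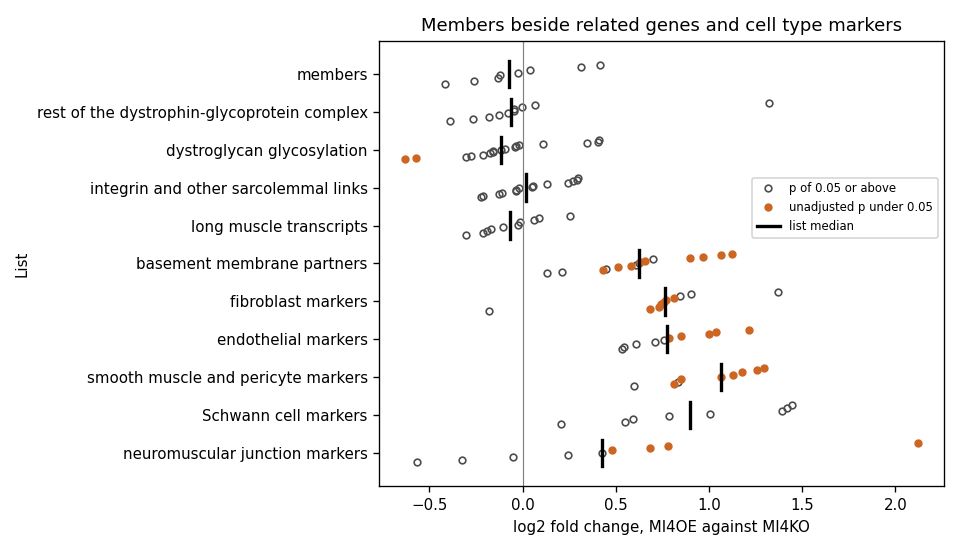
Log2 fold change of MI4OE against MI4KO (x axis) for every tested gene of the members and of 10 related lists (rows), with filled points for an unadjusted p under 0.05 and black bars at the list medians. The members and the rest of the complex centre near 0, while basement membrane partners and the markers of fibroblasts, endothelium and smooth muscle centre between 0.63 and 1.07.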

How the data were processed

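The 6 libraries were grouped by the genotype label alone, and replicate numbers follow the order of deposition. Per the labels and the methods of the study, the authors mapped stranded mRNA libraries, read as single 50-base reads, to a UCSC transcript set with Bowtie2 2.1.0 after bcl2fastq 2.17, and quantified them with RSEM 1.2.15. The genome build is not given in the sources used here. The deposited expected counts are RSEM estimates that are not normalized, and the deposited TPM and effective lengths come from the same runs. The authors' own fold changes and p-values were not used.

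Expected counts were rounded and fitted in R 4.3.3 with edgeR 4.0.16 (quasi-likelihood test, filterByExpr with a minimum count of 10 and total of 15, TMM, Benjamini-Hochberg over 12660 genes). CPM used TMM-scaled library sizes. Alternatives were unfiltered genes, a minimum mean CPM of 1, scaling by RLE or by total counts, DESeq2 1.42.0, edgeR's exact test, limma 3.58.1 on log2(TPM + 1) and log2(TPM + 0.1), each library left out, and a lowess length trend removed. Promoter windows came from RefSeq (GRCm38.p6).

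The members and lists were chosen with earlier results of these data known. Named genes were the members, Irf4, the 3 genes of each list with the smallest p and the 5 genes most like Dmd, Utrn and Lama2. Ttn, Neb, Sgcz, Sntg1, Lama4, Lama5, Fabp4 and Myh3 are named outside this rule, to say what a list or a ratio holds. A gene that the rule names is not reported here.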

Additional observations from a re-analysis of the deposited data

How the results depend on the processing

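No member reached an adjusted p under 0.05 in any of the 15 alternatives, and the median log2 fold change of the members stayed between -0.24 and 0.11. Sgca turned positive with total counts without TMM (0.072), limma on log2(TPM + 1) (0.048) and limma on log2(TPM + 0.1) (0.048), and Sntb1 reached 0.0066 with the last. Total counts also moved the median of all genes to 0.09. Without each library in turn, the log2 fold change ran from -0.23 to 0.41 for Dmd, -0.36 to 0.080 for Dag1, -0.15 to 0.048 for Sgca, -0.69 to 0.14 for Sgcd and -0.67 to 0.18 for Sntb1. Utrn stayed between 0.17 and 0.70 and Lama2 between 0.18 and 0.46. The difference in the Lama2 share ran from -5.97 to 1.70 percentage points. Members whose groups did not overlap numbered 1 with limma on log2(TPM + 1) and 1 with limma on log2(TPM + 0.1) (Lama2 in both), 1 with the length trend removed (Utrn), and 0 to 2 when a library was left out: Lama2 and Sntb1 without MI4KO replicate 1, Sgca and Utrn without MI4KO replicate 2, and Lama2 without MI4OE replicate 2. Members at the study's criterion numbered 0 to 1, the 1 being Utrn without MI4KO replicate 2. For neither count was the share over all genes computed in these settings. With a library left out, fewer libraries have to separate. The 12.9% of all genes without overlap over 6 libraries therefore cannot be set beside those counts. Basement membrane partners at an unadjusted p under 0.05 numbered 4 with the length trend removed and 4 to 10 without a library, while their median log2 fold change was 0.63 and 0.43 to 0.77. Over the related lists other than cell and fibre markers, 3 genes (Lamb1, Col6a1 and Col6a2) passed an adjusted p of 0.05 with DESeq2 and 3, the same genes, with edgeR's exact test, against 0 with the quasi-likelihood test. Over all genes these tools called 111, 112 and 3. The cause of these differences was not tested in these fits. No paired analysis was possible because nothing in the labels ties a MI4KO library to a MI4OE library. With 3 libraries per group, intervals of most members still held 1.5-fold.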

Other observations

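Among the markers of other cells, adipocyte genes had the strongest lean, with 7 of 7 lower in MI4OE, a median log2 fold change of -3.62 and 6 at an unadjusted p under 0.05, against 2.68% of all genes in that direction. Their sum was 184, 346 and 966 CPM in the MI4KO replicates and 266, 139 and 113 CPM in the MI4OE replicates, so the sums overlapped. The groups did not overlap in 5 of the 7 genes, against 12.9% of all genes. Fabp4 alone made up 260 CPM of the sum in MI4OE replicate 1. The median was -2.30 without MI4KO replicate 3 and -4.89 without MI4OE replicate 2. Plin1, which coats lipid droplets, had -3.53 with an adjusted p of 0.454, Lep had -4.01 and Cidec -3.62. Macrophage markers had a median of -0.12, with 2 of 7 higher. The 1 gene at an unadjusted p under 0.05 was the lower Emr1 at -1.17, against 2.68% of all genes in that direction. Cd163 had 0.57 and Mrc1 -0.55. The median was -0.45 without MI4OE replicate 1 and turned to 0.23 without MI4OE replicate 2 and 0.15 without MI4KO replicate 3.

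Slow fibre genes were higher in 8 of 8 by the fit, with a median of 6.25 and 6 at an unadjusted p under 0.05, against 4.9% of all genes in that direction, yet groups overlapped in all 8 because MI4OE replicate 2 was as low as the MI4KO libraries. Tnni1, slow troponin I, measured 0.205, 2.73 and 0.437 CPM across MI4KO and 364, 0 and 28.9 CPM across MI4OE. Without MI4OE replicate 1 the list median was 3.11. Over all 6 libraries Tnni1 had 6.87, Tnnc1 6.30 and Tpm3 3.71. Fast fibre genes had a median of -0.28, with 2 of 10 higher and 0 at an unadjusted p under 0.05, with Myh1 at 1.93, Ckm at -0.40 and Myh2 at 3.05. Without MI4KO replicate 1 that median was -0.047. No gene of these lists reached an adjusted p under 0.05 with the quasi-likelihood fit of edgeR.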
